A study of Mus musculus with 6 samples.

Results

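A set of 10 genes of oxygen sensing and glucose breakdown was followed in long-term blood stem cells (LT-HSCs), which renew themselves and give rise to every blood lineage. The genes were picked by name from the pathway, with earlier results of these data known, and all 10 were found among the 55357 Ensembl gene identifiers of the count table. They are the oxygen-regulated transcription factor subunits Hif1a and Epas1, the sensor gene Egln1, the ubiquitin ligase subunit gene Vhl, the glucose transporter Slc2a1, the glycolytic enzymes Hk2, Pgk1, Pkm and Ldha, and the mitochondrial kinase Pdk1. RNA was sequenced from LT-HSCs of 3 Dcaf8 knockout (KO) and 3 wild-type (WT) mice, all young. Dcaf8 codes for a protein that brings substrates to CUL4 ubiquitin ligases, and the study asked how its loss impairs these stem cells. Cells from bone marrow were sorted as Lin- Sca-1+ c-Kit+ CD150+ CD48-, and each library was made from 50 of them by full-length mRNA amplification. The sources used here do not give strain, sex or the knockout allele.

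Hypoxia-inducible factors (HIFs) pair an unstable alpha subunit with a constant partner, ARNT. In the presence of oxygen, prolyl hydroxylases such as EGLN1 mark the alpha subunit, VHL binds the marked protein, and the proteasome destroys it, so that most of the control acts on protein and not on RNA. Without oxygen the complex binds DNA and switches on glucose uptake, glycolysis and PDK1, which keeps pyruvate out of the mitochondrial citric acid cycle. LT-HSCs are known as cells with high HIF activity and a strong reliance on glycolysis, and loss of Hif1a has been reported to impair their quiescence in mice.

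The libraries held 14461864 to 22386387 counts and 15244 to 17015 detected genes, with WT replicate 3 detecting the fewest. Dcaf8 stood at 74.3, 38.1 and 45.2 TMM-normalised CPM (read counts made comparable between libraries by total and composition) in KO replicates 1 to 3, against 290.5, 293 and 204 CPM in WT replicates 1 to 3. The fitted KO level was 20.6% of WT, and the adjusted p was 0.739 by edgeR and 1.83e-09 by DESeq2. All 12 LT-HSC marker genes examined had counts in all 6 libraries, with a summed level of 2809 to 3207 CPM in KO and 3034 to 3191 CPM in WT. Cd48, whose protein the gate excludes, had 9.60, 34.7 and 16.6 CPM in KO and 7.32, 11.9 and 0.0507 CPM in WT libraries. WT replicate 2 carried 8 neutrophil markers that summed to 6282 CPM, against 6.66 to 28.1 CPM in KO and 11.03 and 29.8 CPM in the other WT libraries. The 8 macrophage markers had their largest sum in that library too, 955 CPM, against 419 to 581 CPM in KO and 445.5 and 598 CPM in the remaining WT libraries. Erythroid markers summed to 73.9 to 173 CPM in KO and 66.3 to 95.02 CPM in WT, lymphoid markers to 80.4 to 101 CPM in KO and 62.3 to 101 CPM in WT, and stromal and endothelial markers to 123 to 145 CPM in KO and 95.7 to 118 CPM in WT. Megakaryocyte markers summed to 712 to 1208 CPM in KO and 677 to 1009 CPM in WT. Within these lists Car1, Ms4a1, Cd3e, Cd3g, Cd8a, Cxcl12, Lepr and Cdh5 were among the genes with no counts. Xist, a transcript of female cells, stood at 50.8 CPM in KO replicate 3 and at most 1.25 CPM in any other library.

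The first question was whether the RNA of these 10 genes differed between genotypes. The late glycolytic genes Ldha, Pkm and Pgk1 were abundant, and their fitted log2 differences lay between -0.14 and 0.14. Hk2, a hexokinase gene, was the one with the most separated groups, with a fitted KO level that was 45.5% of WT. Hif1a had the next largest fitted difference, in the other direction, with libraries of 1 genotype far apart. None of these differences passed the test over all genes.

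The test was the quasi-likelihood F test of edgeR, adjusted by the Benjamini-Hochberg method over 14592 genes, of which 0 (0%) were called at an adjusted p under 0.05. Dcaf8, fitted at 20.6% of WT, was called by DESeq2 but not by edgeR (adjusted p = 0.739). A missing edgeR call therefore does not show equal levels. Of the 10 genes 9 were tested and 0 were called by edgeR, by DESeq2 or by limma-voom, while DESeq2 called 154 genes (0.934%) of the whole table. At an unadjusted p under 0.05 edgeR gave 1 of the 9, Hk2, on the lower side, where 2.35% of all tested genes stood (5.82% in either direction). The KO libraries lay below all WT libraries for Hk2 alone, against 4.43% of all tested genes (10.3% without overlap in either direction). The fitted differences were positive for 5 genes and negative for 4. Their median log2 fold change was 0.10, against 0.0088 over all tested genes. Its value ranged from -0.15 to 0.048 when single libraries were left out, so its sign was not stable.

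**Figure D1:**
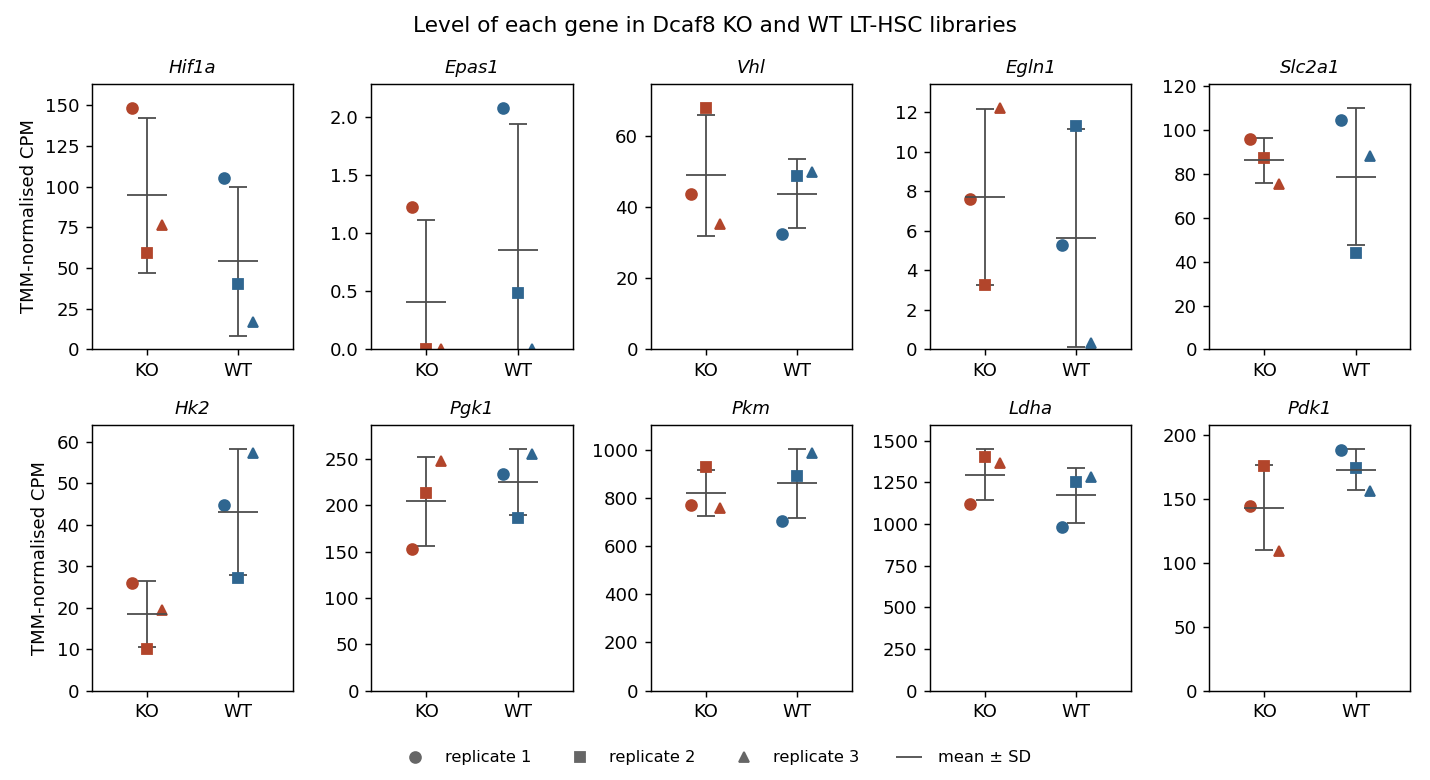
Level of each of the 10 genes in TMM-normalised CPM (linear axes from 0) in KO libraries (left, red) and WT libraries (right, blue). Points are single libraries, marked by replicate number, and bars are the mean ± SD, cut at 0 for Epas1. Hk2 is the only gene with every KO point below every WT point, at 10.1 to 26.0 against 27.2 to 57.3 CPM.

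Hif1a (ENSMUSG00000021109, chromosome 12) encodes the alpha subunit of HIF-1. It stood at 148, 58.9 and 76.4 CPM in KO libraries and at 105, 40.4 and 16.6 CPM in WT libraries. The groups overlapped, and within WT alone the highest library held 6.31 times the level of the lowest. The coefficient of variation was 50.1% in KO and 84.6% in WT. The log2 fold change was 0.88 ± 0.60 (SE, n = 3 mice each), with a 95% interval of -0.53 to 2.29 and an edgeR adjusted p of 0.931. It was 0.38 without KO replicate 1 and 1.76 without WT replicate 1 (unadjusted p = 0.0217, adjusted p = 0.471 by edgeR), and 0.43 without WT replicate 3, which had the lowest level and also the fewest detected genes. In bulk RNA, fewer cells of a type and less RNA per cell cannot be told apart.

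An antisense transcript, Gm15283, overlaps 330 exonic bases of Hif1a on the opposite strand in the GENCODE annotation of GRCm38. Its counts were 447, 127 and 234 in KO and 250, 148 and 32 in WT libraries. That was 13.2, 15.01 and 13.8% of the Hif1a count in KO and 13.4, 17.7 and 9.76% in WT. Both genes were highest in KO replicate 1 and lowest in WT replicate 3. The sources used here do not say whether counting used strand, so reads of one gene and of the other cannot be told apart in the overlap.

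The 3 genes below were nearest to Hif1a in profile among the 11506 others with a mean of at least 5 CPM. Likeness was the root mean square difference of log2 CPM over the 6 libraries, each gene centred on its own mean. They were Elmod3 (0.15), Ndst2 (0.20) and Erg (0.21), which encode a GTPase regulator, a heparan sulphate enzyme and a transcription factor of stem cells. Erg stood at 72.9, 32.9 and 37.2 CPM in KO and at 76.8, 23.1 and 7.97 CPM in WT libraries. Erg was lowest in WT replicate 3, as was Hif1a. It was picked by these same values, so the likeness is no evidence of a link. Of the other 8 tested genes of the set, Slc2a1 came closest at 0.96, with 2623 genes nearer. Hk2 was farthest at 1.49, against a median of 1.12 over all genes compared. The measure takes in the size of the changes, so a gene with steady levels, such as Ldha, could not come near. Whether such genes followed Hif1a was not tested.

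Epas1 (ENSMUSG00000024140, chromosome 17) encodes the alpha subunit of HIF-2. It was close to uncounted, with 28, 0 and 0 counts in KO and 37, 10 and 0 counts in WT libraries. A count of 0 allows a level of up to 0.209 CPM in KO replicate 2, 0.136 CPM in KO replicate 3 and 0.152 CPM in WT replicate 3 (3 counts, counting error only). Epas1 did not pass the filter on low counts, and in a fit without that filter its log2 fold change was -0.77 (unadjusted p = 0.698 by edgeR). At this depth no difference was detectable. The third alpha subunit gene, Hif3a, is set beside both under the gene families below.

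The sensing arm comes next. Egln1 (ENSMUSG00000031987, chromosome 8) encodes the main oxygen-sensing prolyl hydroxylase. Its level was low, 7.63, 3.27 and 12.2 CPM in KO and 5.29, 11.3 and 0.304 CPM in WT libraries. WT replicate 3 held 6 reads, and the groups overlapped. The log2 fold change of 0.52 ± 0.82 (SE, n = 3 mice each; edgeR adjusted p = 0.976) had an interval of -1.39 to 2.44, so the data leave a wide range. It was -0.045 without WT replicate 3 and 1.62 without WT replicate 2.

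Vhl (ENSMUSG00000033933, chromosome 6), the substrate-binding subunit of the ligase that removes HIF alpha, was steadier. It stood at 43.7, 67.9 and 35.1 CPM in KO and at 32.5, 48.8 and 49.7 CPM in WT libraries, with overlapping groups. Vhl had a log2 fold change of 0.10 ± 0.35 (SE, n = 3 mice each; edgeR adjusted p = 0.994), with an interval of -0.71 to 0.91. Its sign turned without KO replicate 2 (-0.15) or WT replicate 1 (-0.064).

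Glucose enters through facilitative transporters and is trapped by phosphorylation. Slc2a1 (ENSMUSG00000028645, chromosome 4) encodes the transporter GLUT1, a classic HIF target. It stood at 95.9, 87.4 and 75.6 CPM in KO libraries and at 105, 43.9 and 88.0 CPM in WT libraries. The low WT value was that of replicate 2, the library with the neutrophil transcripts. Without it the log2 fold change was -0.15, against 0.14 ± 0.33 (SE, n = 3 mice each; edgeR adjusted p = 0.986) over all libraries, and the part of those transcripts in the result was not tested. An antisense transcript, Gm12868, shares 105 exonic bases with Slc2a1 in GRCm38. Its counts were 8.62 to 11.3% of those of Slc2a1 in KO and 10.5 to 12.7% in WT.

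Hk2 (ENSMUSG00000000628, chromosome 6) encodes the inducible hexokinase, which binds mitochondria and performs the first step of glycolysis. Its counts were 594, 145 and 429 in KO and 796, 561 and 1130 in WT libraries. These came to 26.0, 10.1 and 19.4 CPM in KO and 44.8, 27.2 and 57.3 CPM in WT. The highest KO and the lowest WT library were almost level, at 26.0 and 27.2 CPM. The lowest value was that of KO replicate 2, which was also the library with the fewest counts, and the part of depth in it was not tested. Hk2 had a log2 fold change of -1.14 ± 0.45 (SE, n = 3 mice each), with an interval of -2.18 to -0.09, an unadjusted p of 0.0368 and an adjusted p of 0.841 by edgeR. In linear terms the interval of the KO to WT ratio ran from 0.220 to 0.939. Leaving out single libraries kept the sign and gave log2 fold changes of -1.46 (without KO replicate 1) to -0.87 (without WT replicate 3), with unadjusted p-values of 0.0153 to 0.112 by edgeR. The p was over 0.05 without KO replicate 2 or 3 and without WT replicate 1 or 3. Without the library that carried neutrophil transcripts, the value was -1.39. Over 12 alternatives the adjusted p of Hk2 and of the 8 other tested genes was never below 0.430, which DESeq2 gave for Hk2.

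**Figure D2:**
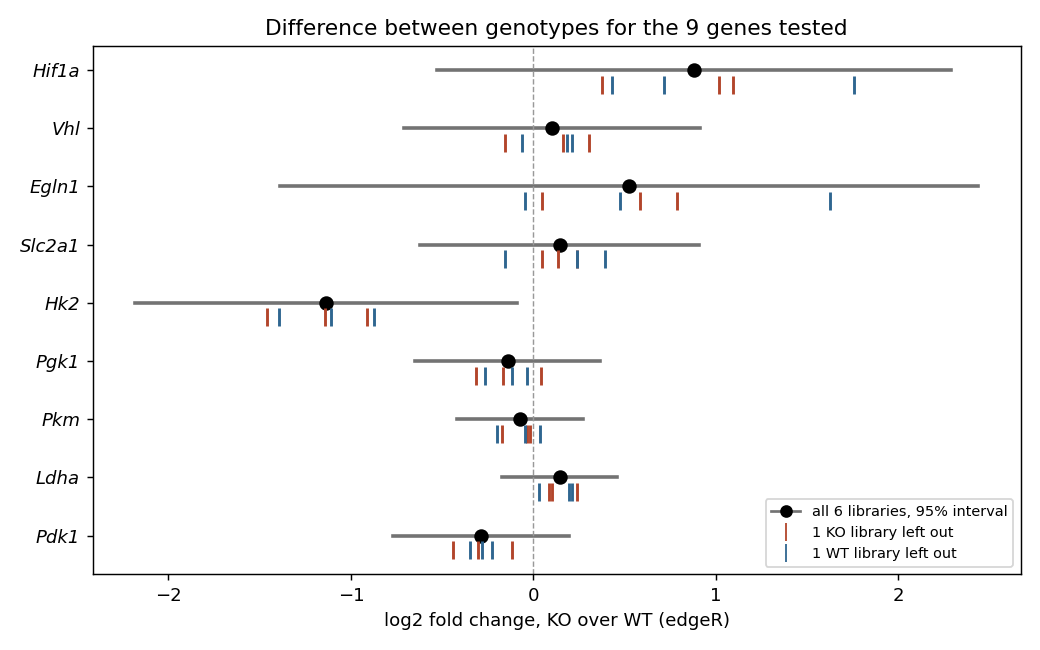
Fitted log2 fold change, KO over WT, of the 9 genes tested (black points) with 95% intervals (grey bars). Ticks below each bar give the value with 1 KO library (red) or 1 WT library (blue) left out. The Hk2 interval alone lies below 0, and Hif1a and Egln1 have the widest intervals.

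Promoters are shown for Hk2, which had the largest fitted difference of the 9 genes, and for Pgk1 and Ldha, textbook HIF targets that were abundant in both genotypes. HIF binds the core ACGTG or GCGTG, and both strands were searched, so that CACGT and CACGC in the printed strand count too. Overlapping matches were merged, and ACGTG lies within CACGTG, the E-box bound by MYC and other factors. Capitals mark the matches. Sequences are RefSeq windows of build GRCm38.p6 from 250 bases before to 50 after a gene's start, printed 5′ to 3′ on the gene's strand. Hk2 is at chr6:82774405-82774704 (minus strand), Pgk1 at chrX:106186850-106187149 (plus strand) and Ldha at chr7:46845554-46845853 (plus strand).
Hk2: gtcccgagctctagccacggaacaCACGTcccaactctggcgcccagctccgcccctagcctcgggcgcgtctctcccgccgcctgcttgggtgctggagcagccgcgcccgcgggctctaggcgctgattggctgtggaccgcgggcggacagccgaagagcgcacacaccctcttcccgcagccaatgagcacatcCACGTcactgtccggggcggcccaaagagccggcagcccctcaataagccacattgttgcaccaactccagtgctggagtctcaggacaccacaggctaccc
Pgk1: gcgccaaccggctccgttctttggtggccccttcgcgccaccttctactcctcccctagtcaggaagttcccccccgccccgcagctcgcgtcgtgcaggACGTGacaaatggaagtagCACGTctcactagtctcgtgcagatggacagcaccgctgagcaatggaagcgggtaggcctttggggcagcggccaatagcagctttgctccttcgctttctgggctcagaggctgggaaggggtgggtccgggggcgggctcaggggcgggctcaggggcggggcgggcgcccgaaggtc
Ldha: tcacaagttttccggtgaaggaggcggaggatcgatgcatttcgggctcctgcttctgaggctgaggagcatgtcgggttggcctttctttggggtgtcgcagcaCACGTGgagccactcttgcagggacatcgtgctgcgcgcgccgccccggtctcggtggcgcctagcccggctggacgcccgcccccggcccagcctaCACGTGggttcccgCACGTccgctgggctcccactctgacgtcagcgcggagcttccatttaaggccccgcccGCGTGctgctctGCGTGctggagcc

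The Hk2 and Pgk1 windows each held 2 core stretches and the Ldha window shown held 5, of which 2 were the full E-box. Another Ldha window, at chr7:46846832-46847131, held 2 stretches and 0 full E-boxes. A window was found for 9 of the 10 genes, all but Epas1. Pkm, Ldha and Pdk1 have 2 windows each. Of all 12 windows, 9 held a core. These belonged to 8 genes, among them Hif1a, Egln1, Slc2a1, Pkm and Pdk1 with 2 stretches in 1 window each, while the Vhl window had none. The core is common: 43.8% of all 32851 windows held it, as did 61.5% of the 12616 windows of tested genes. At least 3 stretches stood in 6.55% of all windows and 12.1% of those of tested genes. A match describes the letters and shows no binding.

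The later steps of glycolysis were carried by abundant RNAs. Pgk1 (ENSMUSG00000062070, chromosome X) encodes phosphoglycerate kinase, the first step that yields ATP. It stood at 152, 213 and 247 CPM in KO and at 234, 186 and 255 CPM in WT libraries. KO over WT, the fitted log2 difference was -0.14 ± 0.22 (SE, n = 3 mice each; edgeR adjusted p = 0.976), with an interval of -0.65 to 0.37, and 0.039 without KO replicate 1. The highest KO value was that of replicate 3, the library with Xist. Without that library the value was -0.31.

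Pkm (ENSMUSG00000032294, chromosome 9) encodes pyruvate kinase, whose splice forms the counts do not separate. Its levels were 771, 930 and 757 CPM in KO and 704, 891 and 985 CPM in WT libraries. Its log2 fold change was -0.074 ± 0.15 (SE, n = 3 mice each; edgeR adjusted p = 0.982), with an interval of -0.42 to 0.27, and 0.037 without WT replicate 3. Another annotated gene, Gm49759, shares 767 of the 5001 exonic bases of Pkm on the same strand in GRCm38. Gm49759 had 104, 58 and 0 counts in KO and 68, 0 and 0 in WT libraries. The part of this overlap in the Pkm counts was not tested.

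Ldha (ENSMUSG00000063229, chromosome 7), the lactate dehydrogenase subunit that favours lactate formation, was the most abundant of the set. It stood at 1120.0, 1401 and 1369 CPM in KO and at 984, 1252 and 1282 CPM in WT libraries. The groups overlapped, and the log2 fold change was 0.14 ± 0.14 (SE, n = 3 mice each; edgeR adjusted p = 0.963). Its interval, -0.17 to 0.46, was the narrowest of the 9. In linear terms it ran from 0.886 to 1.375 times the WT level. The log2 value was 0.030 without WT replicate 1, 0.086 without KO replicate 2 and 0.24 without KO replicate 1.

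Processed copies exist for these genes and could have taken or lost reads. Ldha-ps2 held 668 counts over the 6 libraries against 144520 for Ldha, and Pgk1-rs7 held 207 against 25018 for Pgk1. The sources used here do not say how reads that map to several places were treated.

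Pdk1 (ENSMUSG00000006494, chromosome 2) encodes a kinase that switches off pyruvate dehydrogenase. It stood at 145, 176 and 110 CPM in KO and at 189, 174 and 156 CPM in WT libraries. KO replicate 2 lay among the WT values. Its log2 fold change was -0.29 ± 0.21 (SE, n = 3 mice each; edgeR adjusted p = 0.939), with an interval of -0.77 to 0.19. It stayed negative when any single library was left out, between -0.44 and -0.12.

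Levels can be compared between genes only per length. They are given here as TMM-normalised CPM per kilobase of the APPRIS principal transcript in GENCODE (GRCm38), averaged over the 6 libraries. The order was Ldha (699), Pkm (345), Pgk1 (118), Pdk1 (30.5), Slc2a1 (25.3), Vhl (16.6), Hif1a (15.7), Hk2 (5.59), Egln1 (1.86) and Epas1 (0.115). Ldha, Pkm and Pgk1 stood apart from their neighbours, with no overlap between the ranges over libraries. From Pdk1 downward each gene's range overlapped that of the next. With the length of all annotated exons in place of the principal transcript, Slc2a1 and Pdk1 changed places.

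Most of the genes belong to families of related function, and the shares within a family show which carries most of the RNA. Among the HIF alpha subunits Hif1a made up 91.1, 77.9 and 92.3% in KO and 83.5, 94.0 and 62.0% in WT libraries, and Epas1 at most 1.42%. Hif3a, whose protein can oppose the others, took the remainder. It reached 38.0% in WT replicate 3, on 94 counts, where Hif1a was lowest. The mean share of Hif3a was 12.7% in KO and 19.4% in WT. With the length of all annotated exons it was 5.76% in KO and 9.67% in WT. Egln1 was the minor prolyl hydroxylase gene, with 4.53, 2.22 and 7.09% of the family in KO and 2.89, 5.87 and 0.227% in WT. Egln2 dominated at 77.5, 82.0 and 85.5% in KO and 71.5, 66.8 and 79.4% in WT.

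Hk1, the constitutive hexokinase, held 86.1, 90.7 and 89.7% of the hexokinase family in KO and 83.7, 82.4 and 83.2% in WT libraries. The share of Hk2 was 6.59, 1.87 and 4.30% in KO and 10.1, 5.97 and 11.8% in WT, and here the genotypes overlapped. Hk1 itself stood at 74.6 ± 13.6 CPM per kilobase in KO and 69.7 ± 3.20 in WT (SD, n = 3 per group), so the inducible form was a small part of hexokinase RNA in both. With the length of all annotated exons the mean share of Hk2 was 7.79% in KO and 16.3% in WT.

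Ldha held 79.4, 81.5 and 80.3% of the lactate dehydrogenase family in KO and 79.1, 79.9 and 79.3% in WT, with Ldhb as the rest and Ldhc listed at 0. Of the 6 families plotted, this one had the steadiest split. Slc2a1 and Slc2a3, a high-affinity transporter, shared glucose transporter RNA, with 29.6 to 44.8% for Slc2a1 in KO and 29.1 to 49.2% in WT. With the length of all annotated exons that mean share was 48.1% in KO and 52.6% in WT, so which of the pair leads depends on the length used. Pdk3 and not Pdk1 was the main pyruvate dehydrogenase kinase gene. Pdk1 held 14.7 to 18.4% in KO and 14.6 to 23.9% in WT, while Pdk3 held 58.5 to 69.7% in KO and 59.2 to 75.3% in WT.

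**Figure D3:**
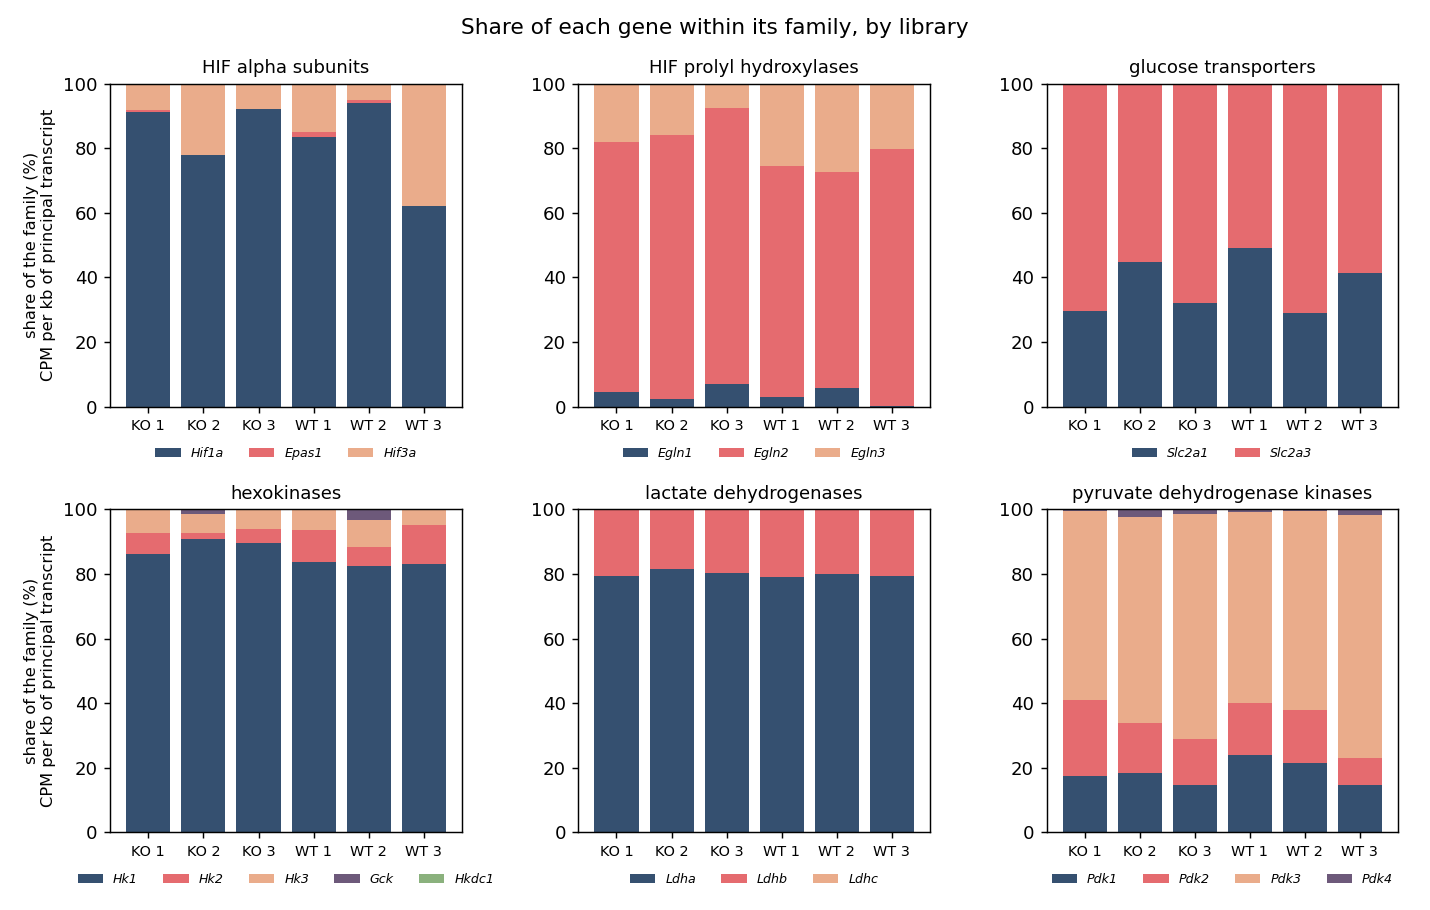
Share of each gene in its family for 6 families (percent of summed CPM per kilobase of principal transcript), one stacked bar per library, with KO replicates 1 to 3 left of WT replicates 1 to 3. Hif1a, Egln2, Hk1, Ldha and Pdk3 make up most of their families, and the Ldha share stays between 79.1 and 81.5%.

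The rest of the pathway was described with 4 lists of 78 other genes, of which 65 passed the filter on low counts and were tested. By edgeR 0 of the 65 were called, and 0 by DESeq2 or limma-voom. At an unadjusted p under 0.05 edgeR gave 2 with higher values in KO, where 3.47% of all tested genes stood, and 1 with a lower value. KO libraries lay above all WT libraries for 4 genes and below them for 4, against 5.91% and 4.43% of all tested genes. DESeq2 gave an unadjusted p under 0.05 for 2 genes of the HIF machinery, 5 HIF targets outside glycolysis, 1 other glycolysis gene and 0 genes of pyruvate entry, of 12, 17, 27 and 13 with a count. Over all genes with a DESeq2 p that share was 5.68%.

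In the HIF machinery 12 of 13 genes were tested, with a median log2 fold change of -0.048, and Arnt2 was at 0 in every library. None passed at an unadjusted p under 0.05 by edgeR. Those with the smallest p were on the lower side. Ep300 and Crebbp, the coactivator acetyltransferases that HIF recruits, were the first of these. Ep300 stood at 20.3, 6.40 and 15.4 CPM in KO and at 42.9, 35.7 and 20.0 CPM in WT libraries, with KO replicate 1 just above WT replicate 3 (log2 fold change -1.12 ± 0.49, edgeR adjusted p = 0.860). Crebbp stood at 26.7, 21.8 and 33.5 CPM in KO and at 38.9, 37.9 and 60.9 CPM in WT, with no overlap (-0.72 ± 0.35, edgeR adjusted p = 0.874). Without WT replicate 3 the value of Crebbp was -0.46. Egln3, a hydroxylase gene that HIF itself induces, had -0.94 ± 0.46, and it was -0.62 without KO replicate 3. Arnt, the partner of both alpha subunits, stood at 59.4, 36.3 and 78.1 CPM in KO and 113, 37.7 and 70.5 CPM in WT. Its log2 fold change of -0.28 turned to 0.15 without WT replicate 1.

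Among HIF targets outside glycolysis 15 of 20 genes were tested, and 8 had positive and 7 negative fold changes, with a median of 0.0073. Ndrg1, a stress-response gene strongly induced by hypoxia, stood at 72.6, 219 and 201 CPM in KO and at 91.5, 33.0 and 41.2 CPM in WT libraries. KO replicate 1 lay within the WT values. Its log2 fold change was 1.57 ± 0.52 (SE, n = 3 mice each; edgeR unadjusted p = 0.0178, adjusted p = 0.769). Ak4, a mitochondrial adenylate kinase, stood at 5.96, 6.54 and 25.8 CPM in KO and at 5.01, 0.727 and 2.59 CPM in WT. The Ak4 log2 fold change of 2.33 was 1.21 without KO replicate 3. The 2 groups of Ak4 did not overlap, by a margin of 5.96 against 5.01 CPM. For Ero1a (listed as Ero1l), an oxidase of protein folding, the KO values were the lower ones, at 29.8, 29.8 and 32.7 CPM in KO and 68.0, 36.4 and 66.0 CPM in WT (log2 fold change -0.87 ± 0.34, edgeR adjusted p = 0.841). Bnip3, a mitophagy receptor gene, had -0.53 ± 0.24. Adm and Epo had no counts, so these induced targets gave no value.

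The other glycolysis genes had a median log2 fold change of 0.024, with 14 positive and 11 negative values among 25 tested of 32. Pfkp, a phosphofructokinase subunit gene, stood at 169, 159 and 166 CPM in KO and at 130, 121 and 140 CPM in WT libraries, with no overlap. Its log2 fold change was 0.35 ± 0.15 (SE, n = 3 mice each; edgeR unadjusted p = 0.0560, adjusted p = 0.866). Slc2a3 had 0.57 ± 0.27, and 0.26 without KO replicate 1. Aldoc, an aldolase gene, had 0.44 ± 0.26, and 0.27 without KO replicate 1. Ldhd, a dehydrogenase of D-lactate, had 1.09 ± 0.69, and 0.49 without WT replicate 3, where it had no counts. Gpi1, Tpi1 and Eno1, chosen after their values were seen, encode steps above and below the split of the sugar. They stood at 391 ± 23.2, 453 ± 51.7 and 689.5 ± 69.0 CPM in KO and at 398 ± 42.9, 450 ± 45.4 and 770 ± 140 CPM in WT (SD, n = 3 per group).

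All 13 genes of pyruvate entry to mitochondria were tested, with a median log2 fold change of -0.081 and 5 positive values. The smallest p belonged to Dld and Pdhb, subunits of pyruvate dehydrogenase, and to Pdp1 and Pdpr, its phosphatase and a regulator. Dld stood at 101, 146 and 137 CPM in KO and at 210, 144 and 154 CPM in WT libraries (log2 fold change -0.41 ± 0.22, edgeR adjusted p = 0.889). Pdhb stood at 260, 268 and 271 CPM in KO and at 308, 274 and 362 CPM in WT, with no overlap (-0.24 ± 0.14, edgeR adjusted p = 0.910). Without KO replicate 1 the Dld value was -0.26, and without WT replicate 1 it was -0.23. The Pdhb value was -0.13 without WT replicate 3. Pdp1 had -0.50 ± 0.28, and -0.28 without WT replicate 2. Pdpr had 0.90 ± 0.61, with 0.53 without KO replicate 3 and 1.597 without WT replicate 3.

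**Figure D4:**
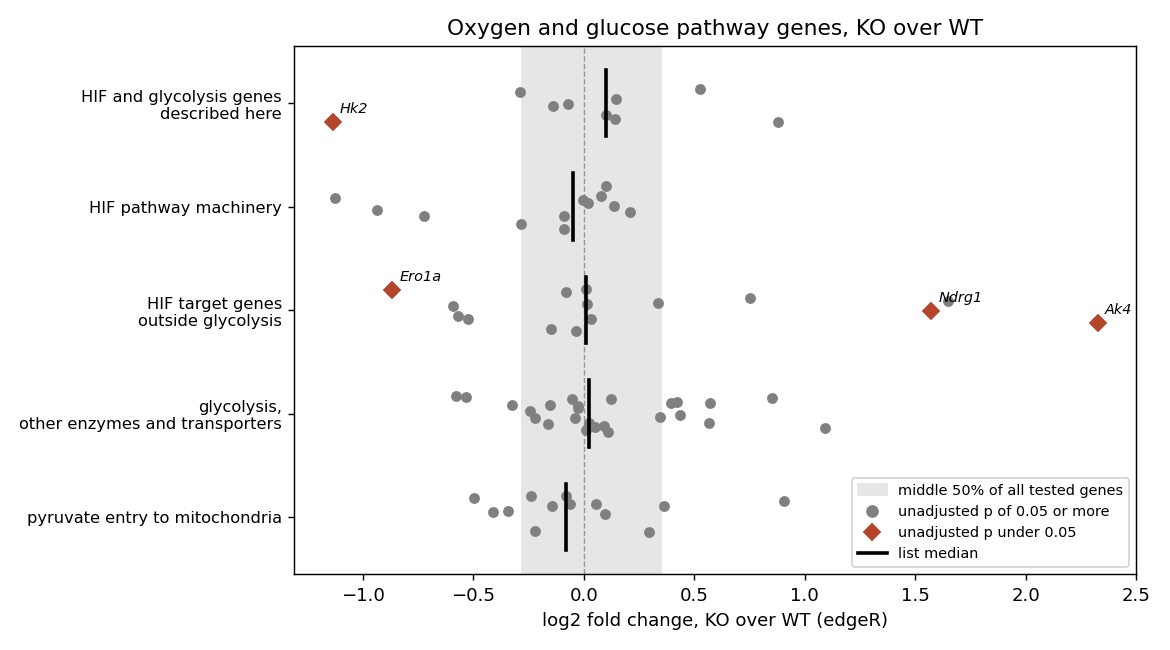
Fitted log2 fold change, KO over WT, of each tested gene of the set and of the 4 further lists (one row each, vertical position within a row is arbitrary). Black bars are list medians, between -0.081 and 0.10, and the grey band holds the values between the quartiles of all tested genes. Red diamonds mark the 4 genes with an unadjusted p under 0.05, Hk2, Ero1a, Ndrg1 and Ak4, none of which passed adjustment.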

How the data were processed

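The authors deposited raw read counts per Ensembl gene, 1 column per library with no pooling. Trimmomatic 0.39, HISAT2 2.2.1, Picard 2.26.1, HTSeq 1.99.2, DESeq2 1.38.3 and build mm39 are named without roles, per the submitters' processing notes. The sources used here do not give the annotation release or strand setting. Reads carry no molecular identifiers, so floors of 3 counts cover counting error only.

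Symbols were matched for 52081 identifiers (94.1%), covering 99.87% of the counts. All list genes matched, 1 (Ero1a, as Ero1l) through a RefSeq synonym. The fit used edgeR 4.0.16 in R 4.3.3 with filterByExpr (minimum count 10, minimum total 15), TMM, robust dispersions and the newer quasi-likelihood method, with genotype as the only term. Standard errors were derived from the F statistic. DESeq2 1.42.0, limma 3.58.1 (voom with sample weights), other size factors, no filter, the legacy method, a replicate block and each library left out were alternatives. The methods were also run on simulated counts, and the outcome of that run is not given here. Each mouse gave 1 library, and the p-values set the difference between genotypes against the spread between these libraries. That spread mixes mice, the draw of 50 cells and amplification, which cannot be told apart.

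The 10 genes and the lists were chosen with earlier results of these data known. Of each further list the 4 genes with the smallest unadjusted p are named, and others as values chosen after they were seen. Lengths came from GENCODE M21 (GRCm38), another build than the counts.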

Additional observations from a re-analysis of the deposited data

How the results depend on the processing

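Across 12 alternatives the 9 tested genes gave 108 fits, of which 102 kept the direction and 0 passed the threshold. The other 6 reversed, each without 1 library: Vhl without KO replicate 2 (-0.15) or WT replicate 1 (-0.064), Egln1 without WT replicate 3 (-0.045), Slc2a1 without WT replicate 2 (-0.15), Pgk1 without KO replicate 1 (0.039) and Pkm without WT replicate 3 (0.037). Over single libraries left out these genes ranged from -0.15 to 0.31 (Vhl), -0.045 to 1.62 (Egln1), -0.15 to 0.39 (Slc2a1), -0.31 to 0.039 (Pgk1) and -0.20 to 0.037 (Pkm). Of the 16 genes named from the further lists Arnt alone reversed, to 0.15 without WT replicate 1 (range -0.61 to 0.15). The cause was not tested. The number of genes called was 0 in every edgeR and limma-voom fit and 154 by DESeq2, and 0 of the 10 genes in any. Over single libraries left out, genes called stayed at 0 and the median of the set ranged from -0.15 to 0.048. The count at an unadjusted p under 0.05, 849, was 559 with the legacy method and 1445 without WT replicate 1. The replicate number as a block, with a median of 0.13 and 0 genes called, changed no call. Deviations of same-numbered libraries correlated at 0.0593, -0.0381 and 0.0058, so no pairing by number was visible. Values this small cannot show that the mice were unpaired. Epas1, at a mean of 0.409 CPM in KO and 0.856 CPM in WT, rests on few counts, as does Egln1 in WT replicate 3 with 6 counts.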

Other observations

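Gapdh, the glyceraldehyde phosphate dehydrogenase gene often used as a reference for RNA levels, stood below its neighbours in the pathway. The values here are plain CPM, not set per length. It had 61.2, 61.5 and 62.4 CPM in KO and 89.5, 76.4 and 67.1 CPM in WT libraries, against 658 ± 67.4 and 768 ± 123 CPM for Aldoa, the aldolase gene one step before it (SD, n = 3 per group). Pgk1, one step after it, was nearer, at 204 ± 48.1 CPM in KO and 225 ± 35.5 CPM in WT. Principal transcripts measure 1420 bases for Gapdh, 1511 for Aldoa and 1825 for Pgk1. The KO libraries of Gapdh lay below all WT libraries, with a log2 fold change of -0.33 ± 0.22 and an edgeR adjusted p of 0.928. Gapdh was chosen here after its values were seen. Gapdh has many processed copies in the mouse genome, and the sources used here do not say how reads that map to several places were treated.

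Hif1an and Vegfa were also picked after their values were seen, and both were lowest in WT replicate 3, the library with the fewest detected genes. Hif1an, the asparaginyl hydroxylase that limits HIF activity, stood at 45.2, 35.4 and 20.3 CPM in KO and at 67.7, 28.9 and 5.53 CPM in WT replicates 1 to 3. Vegfa, the vascular growth factor, stood at 24.9, 13.9 and 21.2 CPM in KO and at 36.8, 16.3 and 10.2 CPM in WT. Vhl had its highest WT value in that library, 49.7 CPM, and Hk2, Pgk1 and Pkm had their highest value of all 6 libraries there.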
